A study of Drosophila melanogaster with 4 samples.

Results

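Broad domains of histone H3 monomethylated at lysine 36 (H3K36me1) were described in nuclei taken from Drosophila melanogaster larvae at instar 3. They were chosen by their width in the deposited list of H3K36me1 regions of the whole series, as every region spanning 10 kb or more, which gave 795 domains of 8190 regions, or 9.71% (9.08 to 10.4, Wilson 95% interval). The study held 4 samples of the wild-type strain Oregon-R: 2 in which chromatin was immunoprecipitated with an antibody to H3K36me1, and 2 of input chromatin, which is taken before that step. No treatment or mutant was compared, and the labels name no tissue of the larvae, so the nuclei are treated as a mixture of cell types, in which a domain present in some cells and one present in all cannot be told apart. A region list was analysed for each immunoprecipitated replicate, beside the list of the whole series. Each region has a start, an end on FlyBase release 5 coordinates, and a score whose scale the sources used here do not state. No read counts came with the lists, so the depth is unknown, and all intervals cover only the counting of regions. The labels do not say whether the replicates came from separate collections of larvae, so the spread between them may be technical.

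Methylation of lysine 36 of histone H3 is a mark of transcribed chromatin. In flies, Set2 travels with elongating RNA polymerase II and places the trimethyl form over gene bodies, while Ash1, a Trithorax group protein that opposes Polycomb silencing, and the NSD family protein Mes-4 place lower methylation states. The monomethyl form is an intermediate towards the higher states, and has been mapped in flies to open chromatin and introns of active genes. No gene is placed on the domains here, because the gene table at hand uses a later assembly of the genome.

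The broad domains held nearly as much marked sequence as all other regions together. The 795 domains covered 16.9 Mb, which was 46.8% of the 36.2 Mb in the list, and the 7395 narrower regions covered 19.3 Mb. Their median width was 16.4 kb, with 12.6 and 24.5 kb as the lower and upper quartiles, and 10% of them passed 37.7 kb. By width class, 331 domains spanned 10 to 15 kb, 176 spanned 15 to 20 kb, 256 spanned 20 to 50 kb and 32 spanned 50 kb or more. The 32 widest domains alone held 2.25 Mb, against 4.04 Mb in the 331 of 10 to 15 kb. The narrower regions were 1914 bp wide at the median.

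The threshold cut through a continuous range of widths. Just inside it, a domain on 2L from 8730452 to 8740464 spanned 10.013 kb with a score of 1.17, one on 2R from 17374833 to 17384850 spanned 10.018 kb with a score of 1.27, and one on 3R from 15444792 to 15454811 spanned 10.02 kb with a score of 0.68. Just outside it, a region on X from 4981082 to 4991066 spanned 9985 bp with a score of 0.91, one on 2L from 13060309 to 13070292 spanned 9984 bp with a score of 0.55, and one on 2R from 17108863 to 17118827 spanned 9965 bp with a score of 0.51. The scores on the 2 sides of the threshold overlapped.

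Broad domains carried higher scores than narrow regions. The median domain score was 0.99, with quartiles of 0.78 and 1.23 and a range from 0.38 to 2.03, and the median narrow score was 0.37, with a range from 0.03 to 2.71. The groups overlapped: 196 narrow regions, 2.65% of the 7395, reached the median of the domains, and 12 of the 795 domains lay below the upper quartile of the narrow regions, at 0.47. Among the 100 best-scoring regions of the whole list 76 were broad domains, and among the 795 best-scoring 497 were.

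Score rose with width on both sides of the threshold, and the 2 were more closely related below it. The median score was 0.32 under 2 kb, 0.43 from 2 to 5 kb and 0.65 from 5 to 10 kb. It was 0.90 from 10 to 15 kb, 0.96 from 15 to 20 kb, 1.06 from 20 to 50 kb and 1.19 at 50 kb or more, where no domain scored below 0.81. Across regions of the same list, which share their libraries, the Spearman correlation of width and score was 0.25 over the 795 domains and 0.59 over the 7395 narrow regions. Width and score come from the same list and neither is independent of the choice of the domains.

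**Figure D1:**
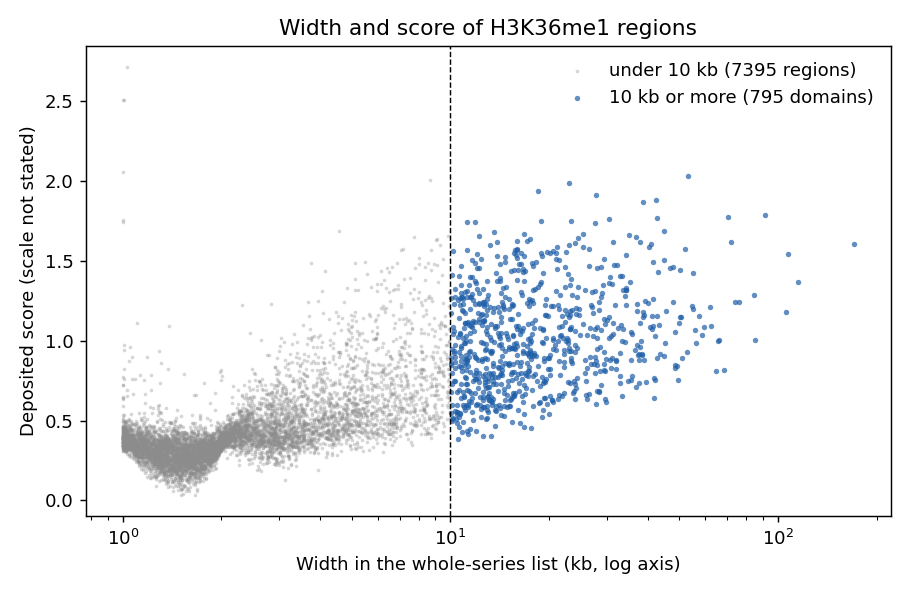
Each point is 1 region of the whole-series list, with its width in kb on a log axis and its deposited score, and the dashed line marks 10 kb. The 795 domains (blue) had a median score of 0.99 and the 7395 narrower regions (grey) one of 0.37, and the 2 clouds overlap between 0.38 and 2.03.

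Domains were spread at similar density over the 5 long chromosome arms. There were 154 on 2L, 143 on 2R, 174 on 3L, 185 on 3R and 137 on X, or 6.69, 6.76, 7.09, 6.63 and 6.11 per Mb. They took between 12.8% of the sequence of X and 15.5% of that of 3L. Median domain scores on the arms lay between 0.95 on 3L and 1.04 on X. When regions of 10 kb or more were counted in each replicate's own list instead, the density was 5.28 ± 0.15 per Mb on 2L, 5.23 ± 0.37 on 2R, 5.72 ± 0.26 on 3L, 5.16 ± 0.25 on 3R and 4.91 ± 0.50 on X (SD, n = 2). X was the lowest arm and 3L the highest in these means as well, but the differences of X from 2L, 2R and 3R were smaller than the SD of X.

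The dot chromosome 4, which is small and largely heterochromatic yet transcribed, carried 2 domains, or 1.48 per Mb. One ran from 511162 to 528445, spanned 17.3 kb with a score of 0.92 and was 1 region in each replicate. The other began 741 bp further on, ran from 529187 to 552563, spanned 23.4 kb with a score of 0.88 and was cut into 2 regions in each replicate. The sequence of 4 is so short that 3 domains alone would make 2.22 per Mb. No domain lay on the 8 heterochromatic or unplaced sequences, which total 48.3 Mb and held 77 regions. A count of 0 there allows up to 0.0621 domains per Mb, for counting alone, and how much of this repetitive sequence reads could be placed on was not tested. The widest region on them, on XHet from 67522 to 74869, spanned 7.35 kb.

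Along the arms, many domains lay close to another one while long stretches had none. Over 789 gaps between consecutive domains the median was 54.1 kb, with quartiles of 9.23 and 162 kb and a mean of 123 kb. Of these gaps, 272 (34.5%) were 20 kb or less and 146 (18.5%) were 5 kb or less, and 37 (4.69%) exceeded 500 kb. The coefficient of variation of the gaps was 1.46. Narrow regions, of which there were many more, had a median gap of 2.65 kb to the next narrow region and a coefficient of variation of 3.96.

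**Figure D2:**
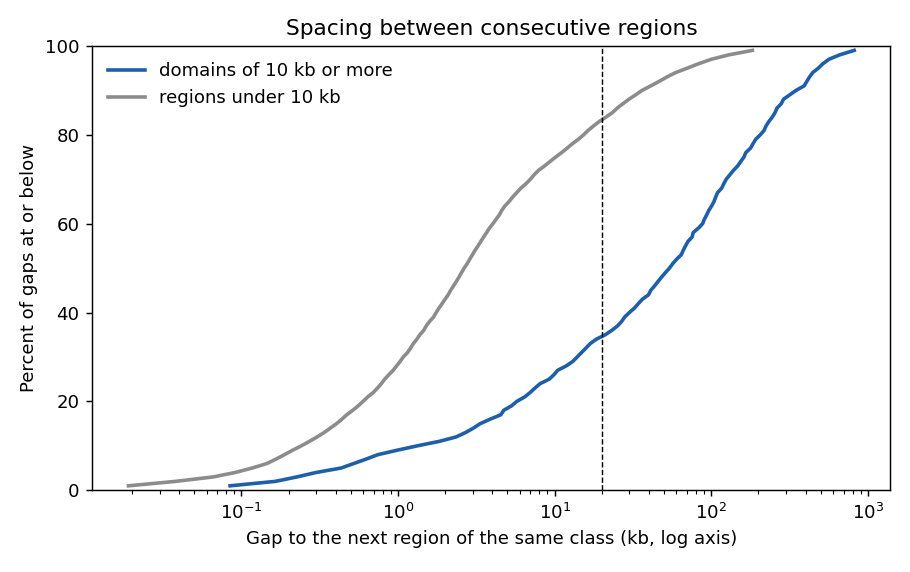
The curves give the percent of gaps at or below each length, between consecutive domains of 10 kb or more (blue) and between consecutive regions under 10 kb (grey), on a log axis in kb. The grey curve includes gaps on heterochromatic and unplaced sequences. The dashed line at 20 kb is the largest gap allowed within a chain, and 34.5% of the gaps between domains lie to its left.

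Windows of 1 Mb differed in how many domains they held. The 117 windows held 0 to 15 domains with a median of 7, and the variance of the counts was 1.61 times their mean. For narrow regions the variance was 5.44 times the mean, and for regions of 10 kb or more in the lists of replicates 1 and 2 it was 1.74 and 1.80 times the mean, and this ratio grows with the mean count where the unevenness is equal. The counts of domains and of narrow regions in the windows had a Spearman correlation of 0.28 over the 117 windows, which share their libraries. The fullest window was the first Mb of 2L with 15 domains, where the replicates had 12 and 16 regions of that width. The first Mb of 3L held 14, with 14 and 10 in the replicates, and the window from 12 to 13 Mb of 3R also held 14, with 8 and 8. The full windows with none were the first Mb of 2R and the last of 3L.

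With a chain defined as consecutive domains no more than 20 kb apart, 444 of the 795 domains (55.8%, 52.4 to 59.3) belonged to 172 chains, and 351 stood alone. There were 108 chains of 2 domains, 39 of 3, 18 of 4, 4 of 5, 2 of 6 and 1 of 7. Their median span was 54.9 kb and the longest spanned 205 kb. Domains in chains had a median width of 17.1 kb and a median score of 0.96, and domains alone had 15.9 kb and 1.00, differences far smaller than the spread among domains.

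The longest chain by number held 7 domains on 3R from 9720458 to 9907076, spanned 186.6 kb and was 78.1% domain. Its members were not alike. The first 3 had scores of 0.62, 0.49 and 0.52 and were met by 1, 3 and 1 regions in replicate 1 and by 2, 6 and 4 in replicate 2. The next domain, of 10.2 kb, scored 1.57, and only 15 bp separated it from the highest member, which spanned 42.7 kb with a score of 1.77. These middle domains were 1 region each in both replicates, with scores of 1.66 and 1.75 in replicate 1 and 1.46 and 1.76 in replicate 2. The last 2 members, of 20.6 and 24.3 kb, scored 1.00 and 1.27. In both replicates the first 3 members scored lower than each of the other 4.

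A chain of 6 domains on 3L from 6756844 to 6900658 had 92.7% of its 143.8 kb in domains. The members were 12.8 to 42.2 kb wide, their scores lay between 0.53 and 1.03, and the smallest gap between them was 2 bp. The other chain of 6, on 3L from 11224200 to 11429329, had the longest span, at 205.1 kb, of which 84.7% was domain. It was met by 18 regions in replicate 1 and 16 in replicate 2. Chains of 5 on 3R ran from 10494338 to 10648854, over 154.5 kb with 7 and 8 regions in the replicates, and from 12012543 to 12152932, over 140.4 kb with 12 and 14. The other chains of 5 lay on 3L from 51606 to 173752, over 122.1 kb with 8 and 13 regions, and on 2L from 13034093 to 13152964, over 118.9 kb with 21 and 23. The chain on 3L had domain scores between 0.81 and 1.55 and the one on 2L between 0.56 and 1.04.

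Short gaps between neighbouring domains were seldom bridged in a replicate. The 72 gaps of 1 kb or less between consecutive domains had a median of 365 bp, and a single region bridged 1 of them in replicate 1 and 0 in replicate 2. Nearly every broad region of a replicate met a single domain of the whole-series list. Whether a break in that list is independent of the breaks in the replicates was not tested. How the list was made is not given in the sources used here.

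Of the stretches between consecutive domains, the longest ran on 3R from 8271723 to 9638521, over 1367 kb. The chain of 7 began at 9720458, shortly beyond its end. The stretch held 77 narrow regions, none wider than 8.70 kb, and the replicates had 44 and 33 regions in it. The next, on 3L from 5348915 to 6684780 over 1336 kb, held 77 narrow regions with 39 and 50 in the replicates. The third, on 2R from 15355465 to 16451829 over 1096 kb, held 36, with 24 and 20. Longer stretches without a domain lay at the centromere-proximal ends of 3L, over 1687 kb after the last domain, and of 2R, over 1596 kb before the first. The end of 3L held 17 narrow regions with 7 and 10 in the replicates, and that of 2R held 53 with 20 and 34.

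Some narrow regions lay beside broad domains. Of the 7395, 1163 (15.7%) lay within 5 kb of a domain, in flanks of 6.58 Mb that made up 6.36% of the sequence outside domains. Those beside domains had a median score of 0.39 and a median width of 2193 bp, against 0.37 and 1872 bp elsewhere. Replicate 1 met 61.6% of them and 53.3% of the others, and replicate 2 met 58.0% and 50.4%. Counting by a single shared bp picks wider regions more readily, and score and the share met rose with width below 10 kb. These differences were not separated from width. The nearest region of any width was a median of 623 bp from a domain and 939 bp from a narrow region. A region lay within 1 kb of 501 domains (63.0%) and of 3846 of the 7395 narrow regions (52.0%).

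The replicate lists showed how well each domain held together. Whether the whole-series list was made from these same replicates, and how, is not given in the sources used here, so the replicates are described beside the domains and are not a test of them. Of the 795 domains, 794 (99.9%) were met by at least 1 region in both replicates, where 46.8% of all 8190 regions were and 3042 of the 7395 narrow regions (41.1%) were. The share met rose with width below 10 kb, and a wider region has more room to be met. Replicates 1 and 2 met 28.0% and 23.5% of regions under 2 kb. They met 82.4% and 81.1% from 2 to 5 kb and 99.3% and 98.8% from 5 to 10 kb. The only domain missing from a replicate lay on 3L from 18646287 to 18657581, spanned 11.3 kb with a score of 0.42, and was met by 2 regions in replicate 1 and 0 in replicate 2.

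Although nearly all domains were found in both replicates, many were cut into pieces there. In replicate 1, 475 domains (59.7%, 56.3 to 63.1) were 1 region, where 51.3% of all regions of the list were, 193 (24.3%) were 2 and 127 (16.0%) were 3 or more, up to 9. In replicate 2, 388 (48.8%, 45.3 to 52.3) were 1 region, where 47.1% of all regions were, 222 (27.9%) were 2 and 184 (23.1%) were 3 or more, up to 11. The mean share kept as 1 region was 54.3 ± 7.74% (SD, n = 2). Narrow regions were 1 region in 50.4% and 46.9% of cases, but the others were nearly all absent (45.4% and 48.4%) and not cut. Among regions a replicate met at all, 92.4% and 90.9% of the narrow ones were 1 region, and 59.7% and 48.9% of the domains. A narrower region has less room for 2 pieces, so this contrast is partly built in by width. Apart from the widest piece, pieces of cut domains were no narrower than 1.30 kb in either replicate. Of the regions under 2 kb that replicates 1 and 2 met, 1122 of 1129 and 946 of 946 were 1 region. Of all regions of 5 to 10 kb, nearly all of which were met, 73.0% and 67.1% were 1 region.

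**Figure D3:**
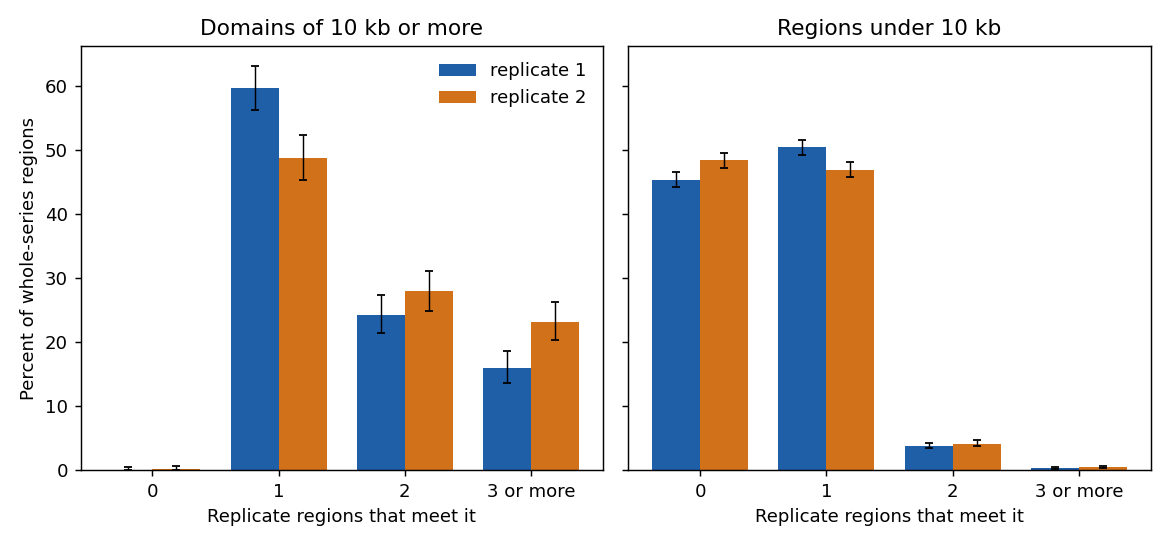
Bars give the percent of domains of 10 kb or more (left) and of narrower regions (right) that were met by 0, 1, 2 or at least 3 regions of replicate 1 (blue) and replicate 2 (orange), with Wilson 95% intervals. Domains were almost never missed and often cut, with 40.3% and 51.1% in at least 2 pieces, and narrow regions were often missed and seldom cut. A narrower region has less room to be met or cut, so part of this contrast is built in by width. Narrow regions of 5 to 10 kb were seldom missed, being met in 99.3% and 98.8% of cases.

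The replicates often cut the same domains. A domain was 1 region in both in 333 cases (41.9%) and was cut in both in 264 (33.2%). Of the 475 that were whole in replicate 1, 333 (70.1%) were whole in replicate 2, against 55 (17.2%) of the 320 that were cut in replicate 1. The number of pieces was the same in both for 457 domains (57.5%), greater in replicate 2 for 240 (30.2%) and greater in replicate 1 for 98 (12.3%). Of the 7395 narrow regions, 34.6% were 1 region in both and 1.95% were cut in both. Their number of pieces was the same in 71.0%, which includes the 34.9% that neither replicate met. It was greater in replicate 2 for 13.4% and greater in replicate 1 for 15.6%.

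Wider domains were cut more often, although each Mb of them held fewer breaks. From 10 to 15 kb, 66.2% and 56.2% of domains were 1 region in replicates 1 and 2, and from 20 to 50 kb 51.2% and 42.2% were. Of the 32 domains of 50 kb or more, 11 (34.4%) and 6 (18.8%) were. The number of breaks per Mb of domain fell from 37.8 and 50.0 at 10 to 15 kb to 21.8 and 32.9 at 50 kb or more.

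The share kept whole spanned a wider range across groups by score than across classes of width. In the 199 domains of lowest score (0.38 to 0.78), 17.1% and 16.6% were 1 region in replicates 1 and 2. In the next 199 the shares were 62.8% and 40.2%, in the 198 after that 71.2% and 57.1%, and in the 199 of highest score (1.23 to 2.03) 87.9% and 81.4%. Breaks per Mb fell from 89.8 and 102 in the lowest to 5.88 and 10.9 in the highest of these groups. The order was the same within width classes. Among domains of 10 to 20 kb, replicate 1 kept 47.1% of those below the median score whole and 90.4% of the others, and replicate 2 kept 34.9% and 79.4%. Among domains of 20 kb or more, replicate 1 kept 21.3% and 66.1%, and replicate 2 kept 11.1% and 56.7%. A break is a stretch without a called region, so a low score and a break may both reflect the caller's threshold, which is not given, and their relation was not tested.

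**Figure D4:**
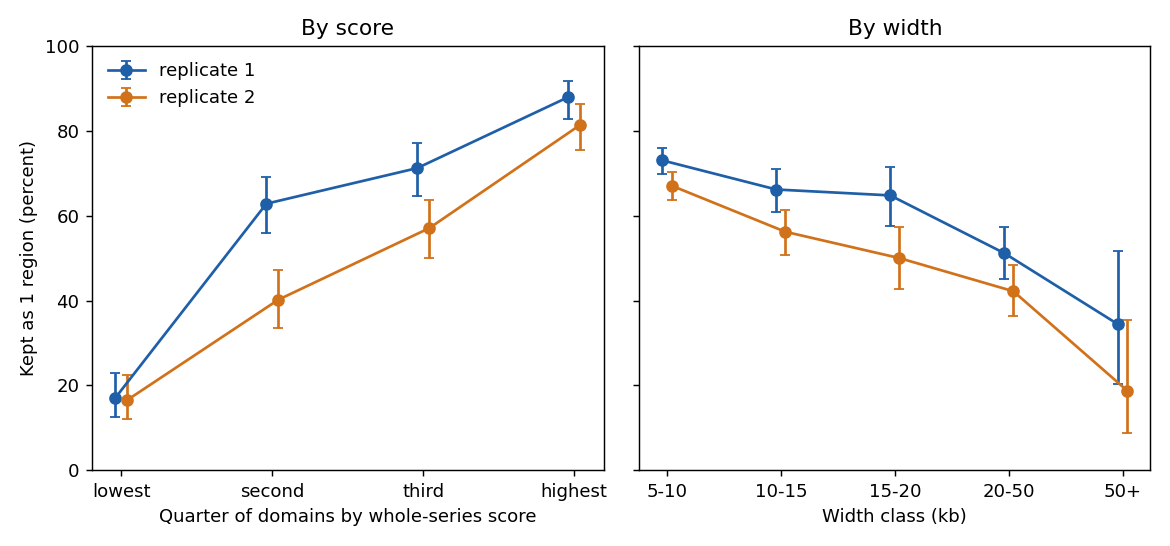
Points give the percent of domains kept as 1 region in replicate 1 (blue) and replicate 2 (orange), with Wilson 95% intervals, by groups of about 199 domains in order of whole-series score (left) and by width class (right, with regions of 5 to 10 kb beside the domains). The percent rises from 17.1 and 16.6 to 87.9 and 81.4 with score, and falls to 34.4 and 18.8 in the widest class.

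Of the 32 domains of 50 kb or more, 5 were 1 region in both replicates and 20 were cut in both. The widest unbroken in both lay on 2R from 14170528 to 14244324, spanned 73.8 kb with a score of 1.24, and scored 1.25 and 1.24 in replicates 1 and 2. The others were 53.2 kb on 2L from 1626854 to 1680057 with a score of 2.03, 52.0 kb on 2R from 12687259 to 12739290 with a score of 1.58, 50.6 kb on 2L from 1884527 to 1935149 with a score of 1.15, and 50.1 kb on 2R from 3623329 to 3673415 with a score of 1.45. The last of these had the scores furthest apart in the replicates, at 1.58 and 1.33. The widest domain of all, 170.4 kb on 3R from 6328808 to 6499246, was 2 regions in replicate 1 and 3 in replicate 2, which covered 98.5% and 97.6% of it. The widest of 3L, 114.9 kb from 711974 to 826897, was 3 regions in replicate 1 and 1 in replicate 2. On 2L the widest, 91.1 kb from 12455314 to 12546383, was 1 region in replicate 1 and 2 in replicate 2, and the widest of 2R, 106.9 kb from 8824199 to 8931082, was 2 and 4. The widest of X, from 3237962 to 3310010, was 2 and 3 regions, which covered 99.4% and 98.9% of it. The best-scoring domains of 3L, from 543054 to 570899, and of X, from 12606005 to 12629032, were 1 region in both replicates, and that of 3R, from 12067895 to 12086457, was 2 and 1. The best-scoring domain of 2R, 70.4 kb from 1988374 to 2058742 with a score of 1.78, was 1 region in replicate 1 and 2 in replicate 2.

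Cut or not, nearly all domains were mostly covered: at least 50% of the sequence was in regions for 788 of the 795 in replicate 1 and 791 in replicate 2. The median covered share was 97.0% in replicate 1 and 94.8% in replicate 2, with a mean of 95.9 ± 1.57% (SD, n = 2), against 55.2% and 41.8% for narrow regions. These narrow medians include the 45.4% and 48.4% of narrow regions that replicates 1 and 2 did not meet. Over the narrow regions that were met, the median covered shares were 90.3% and 85.2%. At least 90% of the domain was covered in 597 cases (75.1%) and 554 cases (69.7%). Of all bases in domains, 89.4% were in regions of both replicates, 4.51% in replicate 1 alone, 3.13% in replicate 2 alone and 2.95% in neither. In narrow regions these shares were 44.7%, 15.9%, 11.1% and 28.3%.

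The breaks between pieces of a domain were mostly short. Replicate 1 had 529 and replicate 2 had 738, with medians of 414 and 396 bp, and 75.6% and 76.8% of them were under 1 kb. They totalled 0.384 and 0.512 Mb. Uncovered ends of domains, which are not counted as breaks, totalled more, at 0.646 and 0.740 Mb. The middle 50% of the domain held 54.3% and 56.8% of the breaks, but a break has a piece on each side by definition and so cannot lie at an end. A break of the other replicate met 240 of the breaks of replicate 1 (45.4%) and 243 of those of replicate 2 (32.9%). For breaks of 1 kb or more these shares were 65.1% and 50.9%, and for shorter ones 39.0% and 27.5%, where a longer break has more room to be met. The longest break of replicate 1, 6.78 kb on 2L from 18349735 to 18356509, lay in a domain of 56.4 kb. The longest of replicate 2, 5.63 kb on X from 1490840 to 1496465, lay in a domain of 41.1 kb. Replicate 1 had a break of 5.13 kb that partly overlapped it, from 1488482 to 1493610.

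The pieces of cut domains differed in score as well as in width. The widest piece is wide by choice, and since score rose with width among regions in general, its score is given as a description. In the 320 domains cut in replicate 1 the widest piece had a median width of 10.9 kb and a median score of 0.86, and the other 529 pieces had medians of 2.85 kb and 0.60. In the 406 cut in replicate 2 the widest piece had medians of 10.2 kb and 0.91, and the other 738 had 2.89 kb and 0.63. The widest piece also had the best score in 263 of the 320 (82.2%) and 316 of the 406 (77.8%). In the 264 domains cut in both replicates, the widest pieces of the 2 replicates overlapped in 240 (90.9%), and shared a median of 72.4% of their joint length. In domains of 3 or more pieces, the widest was at an end in 81 of 127 (63.8%) in replicate 1 and 116 of 184 (63.0%) in replicate 2. Each such domain has 2 end pieces, which are most of its pieces where there are 3, so a high share is built in.

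The domain cut most, on 3L from 12659958 to 12709375, spanned 49.4 kb with a score of 0.75 and was 9 regions in each replicate. Its widest piece was 19.3 kb with a score of 1.09 in replicate 1 and 24.7 kb with a score of 0.94 in replicate 2, beginning 26.3 and 18.4 kb from the start of the domain. The other 8 pieces of replicate 1 scored between 0.43 and 0.73. A domain of 41.7 kb on X from 4470076 to 4511757, with a score of 0.64, was cut more evenly: it was 6 regions in replicate 1, the widest of 10.2 kb, and 11 in replicate 2, the widest of 4.65 kb. On 2L, a domain of 68.4 kb from 8808713 to 8877084 was 8 regions in replicate 1 and 6 in replicate 2, around a piece of 29.2 kb scoring 0.99 and of 35.9 kb scoring 1.10. The fourth, 39.6 kb on 3L from 11389779 to 11429329, was 6 regions in each and is the last member of the 205.1 kb chain. The fifth, 64.8 kb on 3R from 2761967 to 2826732, was 8 regions in replicate 1 and 4 in replicate 2, with the scores of the pieces between 0.64 and 0.99.

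The domains covered least were short and low in score. On 2L, a domain of 12.6 kb from 16472447 to 16485038 with a score of 0.41 was covered to 16.3% and 41.3% in replicates 1 and 2. On 3R, one of 10.5 kb from 17154335 to 17164872, which had the lowest score of all domains at 0.38, was covered to 42.4% and 17.3%. The domain on 3L that replicate 2 missed was covered to 64.0% in replicate 1. Another on 3R, 13.3 kb from 4744130 to 4757443 with a score of 0.40, was covered to 34.3% and 55.4%, and one on 2R, 10.6 kb from 16451830 to 16462420 with a score of 0.46, to 35.2% and 55.4%. In each of these 5 the list of the whole series joined sequence that neither replicate called.

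**Figure D5:**
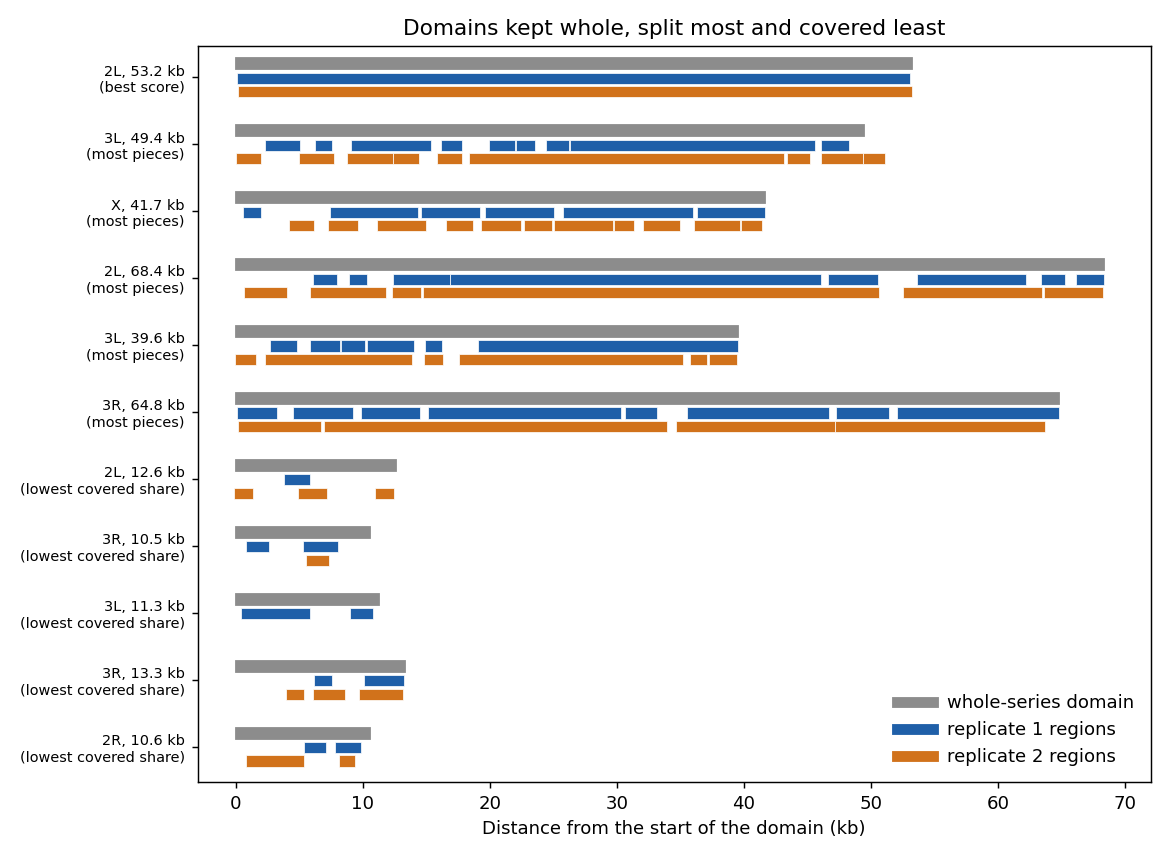
Grey bars show 11 domains of the whole-series list by distance from the start of the domain in kb, with the regions of replicate 1 (blue) and replicate 2 (orange) below each: the best-scoring domain, the 5 cut into the most pieces and the 5 covered least. The best-scoring domain is 1 region in both replicates, 4 of the 5 most cut have at least 1 piece of 15 kb or more in each replicate, and replicate 2 has no region in the domain of 11.3 kb.

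The outer edges of domains were placed closely by the replicates. The outermost replicate edge lay a median of 103.5 bp inside the domain's edge in replicate 1 and 180 bp inside in replicate 2, and 77.8% and 75.2% of edges were within 500 bp. Edges fell inside the domain in 83.1% and 93.4% of cases. Over narrow regions that were met, 83.9% and 80.4% of edges were within 500 bp.

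Few broad regions of the replicates lay outside the domains. Replicate 1 had 654 regions of 10 kb or more, of which 651 met 1 domain and 1, of 10.6 kb on 2L from 13080025 to 13090575, met 2. The remaining 2 met none and each joined 2 regions of the whole-series list: one of 12.7 kb on 3L from 8567970 to 8580647, and one of 10.5 kb on X from 14918253 to 14928715. All 603 such regions of replicate 2 met 1 domain. Seen from the domains, 625 (78.6%) contained or met a region of 10 kb or more in replicate 1 and 558 (70.2%) in replicate 2, and 27 and 38 of them met at least 2.

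Scores of the same domain in the replicates, averaged over its pieces by length, lay close together. Comparing them assumes that the lists share a scale, which the sources used here do not state. Over the 794 domains met in both, the Pearson and Spearman correlations were 0.95 and 0.95, and over the 3042 narrow regions met in both they were 0.89 and 0.81. The medians over domains were 1.05 in replicate 1 and 0.99 in replicate 2, and replicate 1 was higher in 540 domains (68.0%), by a median of 0.046 over all 794. Replicate 1 was higher in 42.9% of the domains of lowest score, in 64.3% and 79.3% of the middle groups, and in 85.4% of those of highest score, where the median difference was 0.101. For narrow regions it was higher in 53.5%, by a median of 0.0099. The whole-series score was below both replicates in 325 domains (40.9%) and in 72.6% of the 3042 narrow regions met in both. Its median difference from the mean of the replicates was -0.024 for domains and -0.070 for these narrow regions. The replicate scores cover called pieces only and leave out sequence that a replicate did not call. How far this difference in measure lowers the whole-series score beside them was not tested.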

How the data were processed

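Region lists with start, end and score were deposited for the whole series and for each of the 2 immunoprecipitated replicates, on FlyBase release 5 coordinates per the file headers. Per the submitters' processing notes, Bowtie 0.12.7 was used; the labels pair each input with a replicate's list. The caller, its thresholds, the score's scale and any merging of replicates were not given in the sources used here. Each score was used as the authors deposited it. Values of the input samples were not analysed here, and 1 row marked as a depleted region was left out of all counts.

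Values were computed with Python 3.11.15, pandas 2.3.3, numpy 2.4.6 and scipy 1.17.1. Regions met when they shared at least 1 bp. A break is the sequence between consecutive regions of a replicate that meet the same domain; uncovered ends are not breaks. Intervals are Wilson 95% intervals. No test was run, since width chose the domains. The scripts were tested on simulated data. The domains named were the widest and best-scoring of each arm and 4, the 5 with the most pieces, the 5 with the lowest mean covered share, the 3 on each side of 10 kb, the chains of 5 or more domains (4 tied at 5) and the 3 longest stretches between consecutive domains; the domains of 50 kb or more that were unbroken in both replicates, the longest breaks, the ends of the arms and the members of chains were chosen after their values were seen. Members and lists were chosen with earlier results of these data known.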

Additional observations from a re-analysis of the deposited data

How the results depend on the processing

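Under 46 alternatives of processing for 10 results, 28 values stayed within the SD between replicates or, for the count of domains, within 1.5 times. The other 18 moved further. A minimum width of 8 kb gave a median score of 0.93, a ratio of density on X to that on the autosomal arms of 0.98 (0.90 as reported), a median gap between domains of 39.6 kb and 63.1% of domains in chains. At 12 kb the gap was 71.8 kb and 49.4% were in chains. With the best-scoring 50% of each list, a mean of 66.4% of domains were 1 region, with 22.3 breaks per Mb, against 54.3% and 37.4. Replicate regions joined over gaps of 1 kb gave 84.5% and 8.83. Whole-series regions joined in the same way gave 972 domains with a median gap of 44.3 kb. Chains with gaps of up to 10 or 50 kb held 45.0% or 72.1% of domains. Regions of 10 kb or more in the list of replicate 1 gave a density ratio of 0.95, a gap of 68.9 kb and 50.0% in chains, and those of replicate 2 a gap of 77.2 kb and 47.3%. The joining for chains and a stricter overlap for replicate regions were chosen after seeing the data. Leaving out either replicate, which cannot move a mean of 2 by more than their SD, gave 48.8% to 59.7% kept as 1 region, 94.8% to 97.0% covered, 31.2 to 43.6 breaks per Mb and edge insets of 103.5 to 180 bp. No paired test was run. The immunoprecipitated samples could not be paired with their inputs, because the input samples have no region list here. The depth, the caller's threshold and the score's scale limit every statement on breaks and scores, and with 2 replicates an SD is itself imprecise.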

Other observations

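An alternative joined neighbouring regions, and its use for chains was added after seeing the data. When whole-series regions within 1 kb of each other were joined, 972 joined domains of 10 kb or more covered 23.3 Mb, the widest spanned 173.1 kb, 77 of them held at least 2 of the deposited domains (169 in all), and 269 held none. One further row of the whole-series list was marked as depleted in the immunoprecipitate and lay on 3R from 16410239 to 16411736, over 1498 bp, with a score of -0.0278.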
